A study of Arabidopsis thaliana with 28 samples.

Results

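Arabidopsis plants overexpressing CZF1 (AT2G40140) were compared with wild type grown at the same temperature, using the 2 CZF1 arrays and the 2 arrays labelled Col-0 WT warm, out of 28 arrays in the series. CZF1 is a zinc finger protein of the plant tandem CCCH family, whose members carry a pair of CCCH fingers that can bind RNA and in several cases also affect transcription. The gene is known in Arabidopsis for its rapid induction by cold, salt and pathogen signals. Early cold-induced factors of this kind act beside the CBF factors, which switch on the COR genes that protect cells during freezing.

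All arrays held total RNA of the entire aerial part of plants grown for 12 days on sterile agar without sucrose. CZF1 and WT warm plants were both kept at 22 °C, with the light on throughout at about 100 µmol m-2 s-1. Besides these, a second Col-0 wild type at 22 °C carries the label of control for the transgenic plants and is called WT line control here. The other groups were 10 more overexpression lines at 22 °C, including ZF (AT4G29190), another tandem CCCH gene, and Col-0 held at 4 °C for 24 h in light of about 30 µmol (WT cold). Each of the 14 groups had 2 arrays. The promoter of the transgene, the number of independent lines and the number of plants pooled per array are not given in the sources used here, and apart from the word biological in the replicate labels nothing states where replicates came from. The p-values therefore measure the spread between these arrays, and the number of arrays limits every value. Because whole shoots were sampled, fewer cells of a type and less RNA per cell cannot be told apart.

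WT warm was used as the control because its overall signal matched that of CZF1. The median log2 signal was 5.83 and 5.84 in the CZF1 arrays, 5.81 in both WT warm arrays and 5.76 and 5.77 in the WT cold arrays. The remaining 22 arrays, with the labelled line control among them, lay between 5.33 and 5.48. Against WT line control, the median change over all probe sets was 0.43 on the log2 scale and 5777 of 15916 probe sets (36.3%) passed the threshold. WT warm itself differed from WT line control in 5397 of 15916 (33.9%), although the labels give both the same genotype, age, temperature and light. The change of a gene against WT line control is therefore given beside that against WT warm for many of the main genes. For some of them it is also given after quantile normalization of all arrays, which removes the offset. The transgene could not be checked, because AT2G40140 is not among the genes named for the probe sets.

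**Figure D1:**
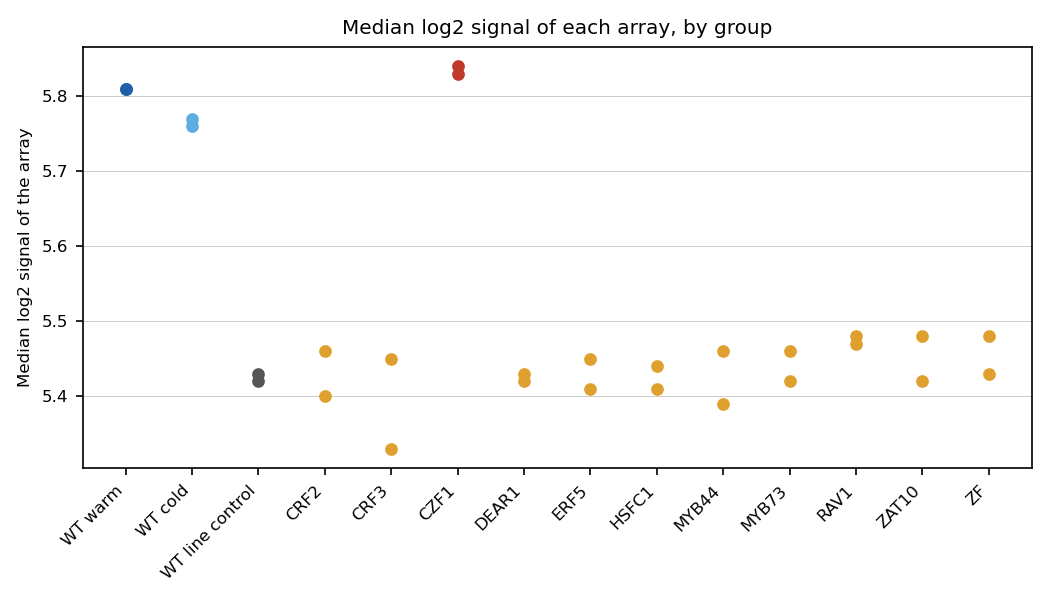
Median log2 signal (vertical axis) of each of the 28 arrays, 1 point per array, with the 14 groups along the horizontal axis. The CZF1, WT warm and WT cold arrays lie at 5.76 to 5.84 and the other 22 arrays at 5.33 to 5.48.

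The CZF1 line differed from WT warm in 165 of 15916 probe sets tested (1.04%, limma adjusted p under 0.05). The signal was higher in 126 (0.792%) and lower in 39 (0.245%), and 106 of the rises and 24 of the falls were at least 2-fold. Among those naming 1 gene, 75 rose and 22 fell, while 68 of the changed probe sets had no usable name. In all 165, both CZF1 arrays lay beyond both WT warm arrays, a separation also seen in 24.1% (higher) and 22.8% (lower) of all probe sets. The calls rest on a spread pooled over all 14 groups. With only CZF1 and WT warm in the fit, 0 passed in limma (2527 at an unadjusted p under 0.05, smallest adjusted p = 0.205). Leaving out 1 array gave 44 calls without CZF1 replicate 1, 217 without CZF1 replicate 2, 84 without WT warm replicate 1 and 97 without WT warm replicate 2.

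**Figure D2:**
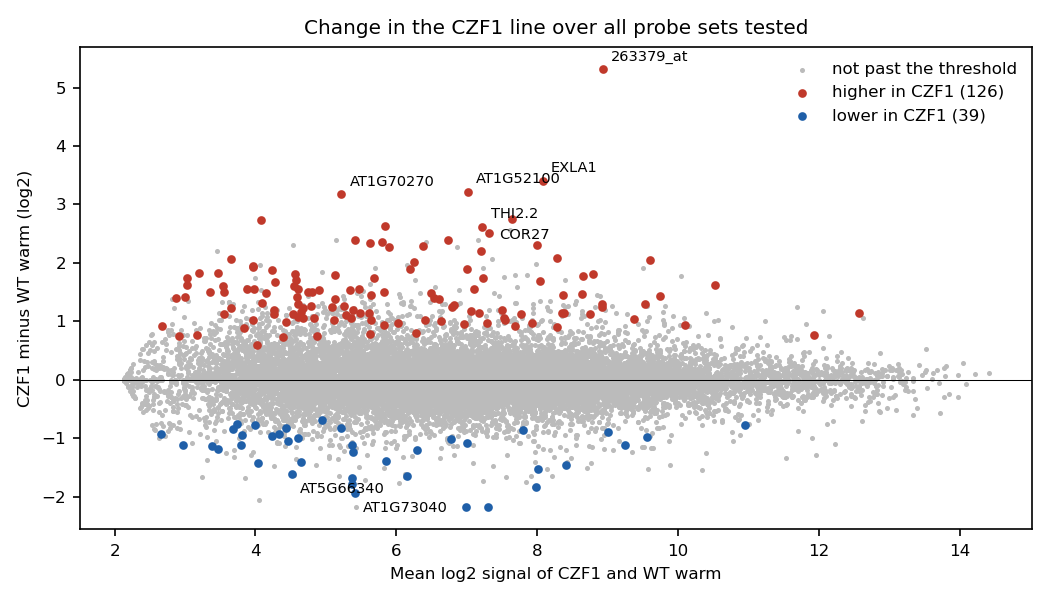
Change in log2 signal, CZF1 minus WT warm (vertical axis), against the mean log2 signal of both groups (horizontal axis) for the 15916 probe sets tested. Red points are the 126 that passed the threshold as higher in CZF1, blue points the 39 that passed as lower, and grey points did not pass. The unnamed probe set 263379_at stands at 5.32, above every other.

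The largest change belonged to a probe set without a gene name. Probe set 263379_at read 12.14 and 11.04 in CZF1 and 6.11 and 6.43 in WT warm, a rise of 5.32 ± 0.34 (SE, adjusted p = 6.21e-08), or 39.9-fold. Both CZF1 arrays stood far above all the others, and the rise was 6.04 against WT line control. It was 4.72 above the mean change of the other 10 lines against their own control (adjusted p = 1.86e-05). Which transcript it measures was not determined here.

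Genes of the cell wall were among the largest rises. EXLA1 (AT3G45970), an expansin-like protein of the family whose expansins loosen walls, read 10.13 and 9.43 in CZF1 and 6.18 and 6.56 in WT warm, a rise of 3.41 ± 0.36 (adjusted p = 1e-04). Both CZF1 arrays were high and both WT warm arrays low, but WT line control, at 8.46 and 9.05, came close to CZF1. Against that control the difference was 1.02 (adjusted p = 0.0342), and after quantile normalization it was 0.52 (adjusted p = 0.326). The size of the EXLA1 change thus depended on which wild type was used, since WT warm lay 2.38 below WT line control (adjusted p = 0.000204).

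ATPMEPCRB (AT4G02330, pectin methylesterase 41), which removes methyl groups from pectin, read 8.10 and 7.78 in CZF1 and 5.21 and 5.86 in WT warm and rose by 2.40 ± 0.40 (adjusted p = 0.00471). XTH33 (AT1G10550), an enzyme of the family that cuts and rejoins xyloglucan chains, read 4.18 and 4.36 in CZF1 and 3.04 in both WT warm arrays, a rise of 1.23 ± 0.20 (adjusted p = 0.00378). AT3G15720, of the polygalacturonase-like family, read 5.49 and 5.51 in CZF1 and 4.01 and 3.98 in WT warm, a rise of 1.51 ± 0.21 (adjusted p = 0.00102). These 3 genes showed no overlap between groups, and the XTH33 and AT3G15720 rises passed in every fit with 1 array left out. XTH33 also read 3.04 in both WT cold arrays, and AT3G15720 read 3.98 in both ZF arrays. Such repeated values may mark a lower limit of these probe sets, which would keep the wild type spread small. This was not tested. Of 15 expansin genes tested, 2 rose and 0 fell, the other being EXLA2 (AT4G38400, 1.08 ± 0.21, adjusted p = 0.016). The expansin median was -0.08, against 0 over all probe sets tested, of which 0.792% rose and 0.245% fell. Of 7 xyloglucan endotransglucosylase genes, only XTH33 passed, and XTH20, at 1.22, did not (adjusted p = 0.0605). Against WT line control ATPMEPCRB was 1.69 and EXLA2 0.78 higher (adjusted p = 0.00388 and 0.00934). After quantile normalization these differences were 1.20 and 0.49, without passing (adjusted p = 0.0518 and 0.13). The ATPMEPCRB and EXLA2 calls were lost without CZF1 replicate 1 or WT warm replicate 1 (adjusted p up to 0.0769 and 0.253), and that of EXLA2 also without WT warm replicate 2.

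Several genes of defence proteins rose. THI2.2 (AT5G36910), a thionin, one of the small cysteine-rich antimicrobial peptides, read 8.45 and 8.61 in CZF1 and 5.78 and 6.04 in WT warm. Its rise was 2.62 ± 0.37 (adjusted p = 0.00119), and it was 3.11 against WT line control. The chitinase-family gene AT2G43590 read 9.50 and 9.16 in CZF1 and 7.59 and 6.88 in WT warm, a rise of 2.09 ± 0.39 (adjusted p = 0.0115). The levels of AT2G43590 in WT line control, 4.61 and 5.04, were lower still, so that the difference from that control was 4.50. Its neighbour AT2G43620, of the same family, rose by 1.49 ± 0.33 (adjusted p = 0.031). Both chitinase calls were lost without CZF1 replicate 1 or WT warm replicate 2 (adjusted p up to 0.143 and 0.413), and that of AT2G43620 also without WT warm replicate 1.

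Of 6 measured salicylic acid and pathogen defence genes, these 2 chitinase genes rose and 0 fell, with a list median of 0.72. The shares over all probe sets tested were 0.792% higher and 0.245% lower. CHI (AT2G43570), PR-1-LIKE, SAG101 and AT4G33720 did not pass, with changes of 1.05, 0.39, -0.04 and -0.19. The defensin PDF1.2 read 7.95 and 6.30 in CZF1 and 4.17 and 6.66 in WT warm, so the groups overlapped (adjusted p = 0.669). Of the 27 genes on that list, 6 were named on the array. AT4G12500, which belongs to a cluster of proline-rich lipid transfer-like proteins, read 7.10 and 6.50 in CZF1 and 4.57 and 4.34 in WT warm and rose by 2.34 ± 0.53 (adjusted p = 0.0374), a call that each of the 4 fits with 1 array left out lost. AT2G37130, a class III peroxidase, read 7.81 and 7.23 in CZF1 and 5.50 and 4.96 in WT warm, a rise of 2.29 ± 0.36 (adjusted p = 0.00335). Against WT line control AT2G37130 differed by 0.70 (adjusted p = 0.134).

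The jacalin-related lectins, carbohydrate-binding proteins several of which respond to jasmonate, moved both ways. AT1G52100 read 8.39 and 8.87 in CZF1 and 4.94 and 5.87 in WT warm, a rise of 3.22 ± 0.49 (adjusted p = 0.00228). It was 4.13 higher than in WT line control. AT1G73040 read 3.78 and 5.11 in CZF1 and 6.04 and 6.73 in WT warm, a fall of 1.94 on the log2 scale (SE 0.35, adjusted p = 0.0098), although WT line control, at 5.33 and 4.93, overlapped CZF1. The AT1G73040 call was lost without CZF1 replicate 1 or WT warm replicate 2 (adjusted p up to 0.211). Of 12 lectin genes tested 1 rose and 1 fell, beside 0.792% and 0.245% of all probe sets, and the lectin median was 0.05. JAL23 changed by -1.61 (adjusted p = 0.083), and JAL33 and JAL34 by 1.08 and 1.00 (adjusted p = 0.18 and 0.24).

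Among cold-regulated genes, COR27 and its relative AT4G33980 (known as COR28), which repress clock genes and are themselves induced by cold, rose in CZF1 plants kept in the warm. COR27 (AT5G42900) read 8.90 and 8.25 in CZF1 and 5.26 and 6.87 in WT warm, a rise of 2.51 ± 0.42 (adjusted p = 0.00493). AT4G33980 read 6.26 and 6.04 in CZF1 and 5.11 and 5.12 in WT warm, a rise of 1.03 ± 0.21 (adjusted p = 0.0175). Neither overlapped WT warm, but the WT warm arrays differed by more for COR27 than the CZF1 arrays did, and its call was lost without CZF1 replicate 1 or WT warm replicate 1 (adjusted p up to 0.105). The AT4G33980 call held only without CZF1 replicate 2 among the 4 fits with 1 array left out (adjusted p up to 0.22). Against WT line control COR27 was 1.98 higher and AT4G33980 1.04 higher (adjusted p = 0.00188 and 0.00124), and after quantile normalization 1.48 and 0.62 (adjusted p = 0.0204 and 0.0631).

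The other 8 measured genes of the CBF regulon list did not pass against WT warm. COR15A, whose product stabilises chloroplast membranes in freezing, read 8.41 and 8.30 in CZF1 and 8.44 and 8.74 in WT warm, a difference of -0.24 (adjusted p = 0.945). COR15B differed by -0.15 and the dehydrin COR47 by 0.08 (adjusted p = 0.977 and 1). The dehydrin LTI30 read 9.27 and 9.60 in CZF1 and 8.16 and 8.23 in WT warm, 1.24 higher (adjusted p = 0.234). AT4G30660, AT4G30650, AT5G62350 and AT2G23120 were 1.01, 0.73, 0.68 and 0.52 higher without passing. The regulon list thus had 2 rises, 0 falls and a median of 0.71 over 10 genes, with CZF1 arrays entirely above WT warm in 7 of them. Over all probe sets tested, 0.792% rose and 24.1% had such a separation. The direction of the COR15 genes turned with the control: COR15A was 1.32 and COR15B 1.69 higher than in WT line control (adjusted p = 0.0294 and 0.0108), and 0.84 and 1.20 higher after quantile normalization (adjusted p = 0.211 and 0.0862).

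WT cold was compared with the same WT warm arrays and so shares its control. It was kept at 4 °C in light of about 30 µmol, against 22 °C and about 100 µmol in WT warm. Effects of temperature and light therefore cannot be told apart. In WT cold COR27 changed by 4.18, AT4G33980 by 2.47, COR15A by 5.58, COR15B by 4.45, COR47 by 3.87 and LTI30 by 5.60. There 9 of the 10 regulon genes rose, beside 14.1% of all probe sets. The changes of EXLA1, AT1G52100 and THI2.2 in WT cold were 0.60, -2.00 and 1.60, against 3.41, 3.22 and 2.62 in CZF1. AT1G21540 went up by 2.74 in WT cold and 1.93 in CZF1.

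Clock genes other than the COR27 pair gave no further calls. CCL read 12.86 and 12.44 in CZF1 and 11.09 and 11.84 in WT warm, 1.18 higher (adjusted p = 0.0513), and GI was 0.60 higher (adjusted p = 0.388). With COR27 and AT4G33980 counted, 2 of 4 clock genes rose, beside 0.792% of all probe sets tested. These 2 are also the 2 rises of the regulon list. The only measured tandem CCCH gene was AT5G12850, which read 5.06 and 5.84 in CZF1 and 6.73 and 6.41 in WT warm, a difference of -1.12 (adjusted p = 0.0644).

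Among the other named rises were genes of enzymes, transporters and redox proteins. AT1G21540, an acyl-activating enzyme of the AMP-binding family, read 5.17 and 4.70 in CZF1 and 2.72 and 3.29 in WT warm, a rise of 1.93 ± 0.21 (adjusted p = 1e-04). AT1G75960, of the same family, rose by 1.83 ± 0.32 (adjusted p = 0.00748). The NPF5 family of nitrate and peptide transporters had 3 rises and 0 falls in 8 genes tested, AT1G22570 by 2.39 ± 0.41, AT1G72140 by 1.51 ± 0.29 and AT1G22550 by 1.00 ± 0.23 (adjusted p = 0.00598, 0.0129 and 0.0422). At most 1 of these 3 calls was kept in any fit with 1 array left out. The CC-type glutaredoxins, small redox proteins specific to land plants, had 3 rises and 0 falls among 15 genes. AT3G62960 went from 2.16 in both WT warm arrays to 4.26 and 3.54, AT4G15700 from 3.73 and 3.71 to 5.34 and 5.53, and AT4G15680 from 4.68 and 4.87 to 5.78 and 6.18. The AT4G15700 rise of 1.71 was not seen against WT line control, in which both arrays read 5.90. The AT3G62960 rise starts at the bottom of the scale, whose lowest value is 2.13, so its size depends on that floor. UGT85A2 (AT1G22360), a glycosyltransferase, was the single call among 34 family 1 glycosyltransferases (1.14 ± 0.20, adjusted p = 0.00748). Against WT line control UGT85A2 was 0.95 and AT4G15680 1.02 higher (adjusted p = 0.00191 and 0.0105). After quantile normalization these differences were 0.43 and 0.62, without passing (adjusted p = 0.166 and 0.149). Beside these list counts, 0.792% of all probe sets tested rose and 0.245% fell. The lists of glutaredoxins, transporters, lectins, thionins and chitinases were drawn up after the calls had been seen, so their counts are descriptions only.

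Among named genes, the other large rises were those of AT1G70270, to which no role is given here (7.29 and 6.33 in CZF1, 3.81 and 3.45 in WT warm, 3.18 ± 0.44, adjusted p = 0.000959), and AT4G39320 (4.82 and 4.55 against 2.61 in both WT warm arrays, 2.07 ± 0.31, adjusted p = 0.00183). Besides these, 8 unnamed probe sets rose by more than AT4G39320, the one at 5.32 and others from 2.21 to 2.75. AT1G19380 and the protein kinase gene AT1G61590 rose by 1.89 and 1.83 (adjusted p = 0.0136 and 0.0308). For AT1G61590 the line control, at 4.17 and 4.84, was as high as CZF1, at 4.18 and 4.03.

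The falls were smaller. AT5G66340, to which no role is given here, read 3.21 and 4.21 in CZF1 and 5.25 and 5.40 in WT warm and fell by 1.62 on the log2 scale (SE 0.22, adjusted p = 0.000959). Of the 16 falls refitted with each array left out, it alone passed in every such fit, and it was -1.88 against WT line control. The unnamed probe set 260380_at fell by 2.17 (SE 0.37, adjusted p = 0.00617). AT1G80130, of the tetratricopeptide repeat family, read 7.68 and 7.69 in CZF1 and 8.90 and 9.39 in WT warm, a fall of 1.46 on the log2 scale (adjusted p = 0.0495), yet stood 1.88 above WT line control.

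AT1G08280 (GALT29A), a glycosyltransferase of arabinogalactan proteins, fell by 1.12, the Rab acceptor PRA1.B4 by 1.09, the fatty acid elongase family gene AT3G06470 by 1.02 and the S-adenosylmethionine decarboxylase gene AT5G15950, of polyamine synthesis, by 0.89 on the log2 scale (adjusted p = 0.00396, 0.0175, 0.0455 and 0.04). Against WT line control AT1G08280 differed by -0.02, AT3G06470 by -0.54 and AT5G15950 by -0.52, without passing (adjusted p = 0.951, 0.0863 and 0.0544). The changes of AT3G03440, AT1G62840, AT2G42290, AT2G04280, AT3G28420, AT1G33900, AT3G02930 and AT1G53120 lay between -1.19 and -0.86 (adjusted p from 0.00831 to 0.0458). AT1G62840, PRA1.B4, AT1G33900 and AT3G02930 were also lower than in WT line control (-1.89, -0.90, -1.42 and -0.83, adjusted p up to 0.00691). AT2G04280 passed against that control only after quantile normalization (-0.37 as deposited and -0.88 after it, adjusted p = 0.21 and 0.0101).

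**Figure D3:**
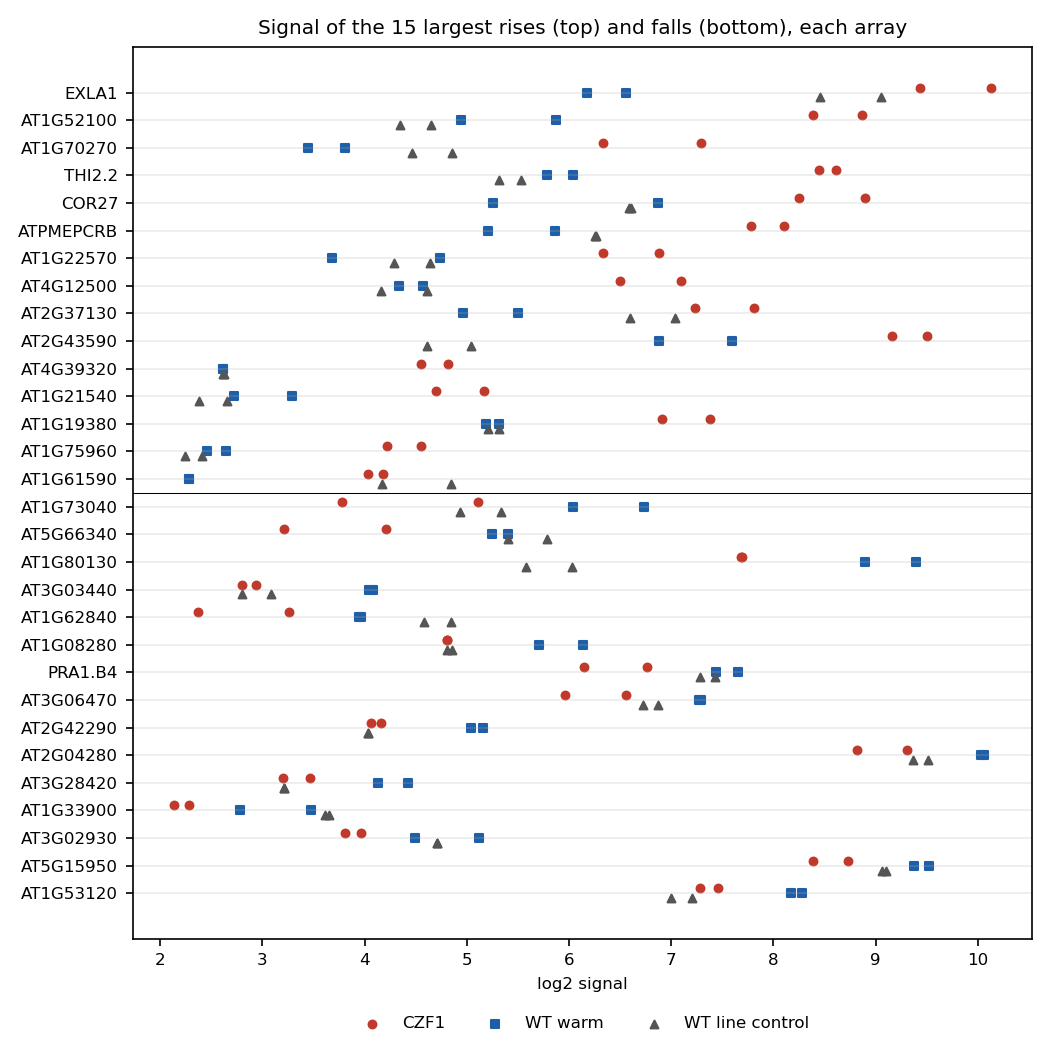
log2 signal (horizontal axis) of the 15 named genes with the largest rises (above the line) and the 15 with the largest falls (below it), 1 point per array. Red circles are CZF1, blue squares WT warm and grey triangles WT line control. Genes were taken only where the CZF1 and WT warm arrays did not overlap, so the gap between CZF1 and WT warm is by choice. In 18 of the 30, 7 rises and 11 falls, the mean of WT line control lies nearer to CZF1 than that of WT warm. For AT1G61590, AT1G80130, AT1G53120, AT3G28420 and AT2G42290 the mean of WT line control lies beyond CZF1, seen from WT warm. Signals are as deposited, with the lower overall level of the WT line control arrays included.

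Of the 49 genes named here or in the comparison with the other lines that passed against WT warm, 33 rose and 16 fell. Leaving out any 1 of the 4 arrays kept 17 of them, 16 rises and 1 fall. Against WT line control 31 passed in the same direction (26 rises and 5 falls), and 26 did so after quantile normalization (18 rises and 8 falls). The 11 that met all of these were AT1G52100, AT1G70270, THI2.2, AT4G39320, AT1G21540, AT3G62960, AT1G66180, AT2G37950, AT3G15720, XTH33 and, as a fall, AT5G66340. Over all 165 calls, 30 had the opposite sign against WT line control in the values as deposited, 12 of the rises and 18 of the falls. These values carry the offset in signal, with a median change of 0.43, which works against falls and in favour of rises.

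Many other pathways had no call. Over all probe sets 1.04% passed, a share at which short lists can hold 0 calls without differing from the rest. At an unadjusted p under 0.05 in limma there were 1777 of 15916. The 9 light harvesting and photosystem genes, which mark green leaf tissue, had changes from -0.64 to 0.05 and a median of -0.12. None of 7 tetrapyrrole synthesis genes, 66 chloroplast-encoded genes, 14 cytochrome P450 genes, 9 heat shock genes, 8 SWEET sugar transporters, 9 ATG8 autophagy genes or 7 tubulin genes passed in limma, and 3 of the SWEET genes, 1 each of the chloroplast-encoded, heat shock and ATG8 genes and 0 of the others had an unadjusted p under 0.05. The 5 flavonoid and anthocyanin genes ranged from -0.66 to -0.15, and 4 of them lay entirely below WT warm, as did 22.8% of all probe sets tested. Of these 5 genes 0 passed, also at an unadjusted p under 0.05. GSTU25 and STZ (ZAT10), which respond to oxidative stress, were 1.43 and 1.12 higher without passing (adjusted p = 0.263 and 0.64).

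**Figure D4:**
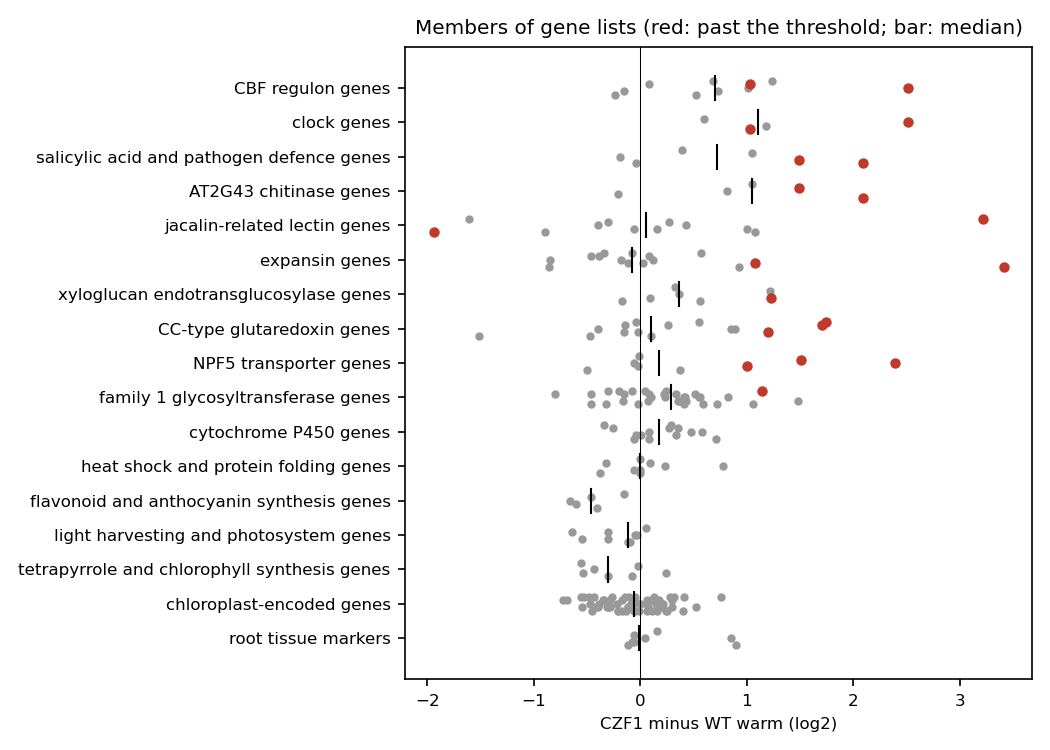
Change in log2 signal, CZF1 minus WT warm (horizontal axis), of each tested member of 17 gene lists (vertical axis). Red points passed the threshold, grey points did not, and the black bar is the list median. Calls are few in each list, and the photosystem, chloroplast-encoded and P450 genes cluster near 0.

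Markers of other tissues changed little. Of 20 root genes listed, 8 were measured and 0 passed in limma (2 at an unadjusted p under 0.05), with changes from -0.12 to 0.90. Of all probe sets tested only 1.04% passed. Their summed linear signal was 703 and 755 in CZF1 and 657 and 530 in WT warm. The seed storage gene PAP85 differed by -0.20, and 0 of 3 named flower and pollen genes passed the signal filter. The 25S rRNA control probe set read 10.98 and 10.25 in CZF1 and 9.74 and 9.73 in WT warm, higher in both CZF1 arrays. The 3′ minus 5′ difference of GAPDH, a measure of RNA quality, was 1.42 and 1.44 in CZF1 and 1.11 and 1.83 in WT warm. The part of the root signal and of the rRNA signal in the changes above was not tested.

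The CZF1 line was then set against the other 10 lines. Taken directly, 7666 of 15916 probe sets (48.2%) differed from the mean of the other lines and 4080 (25.6%) from ZF, with median changes over all probe sets of 0.40 and 0.34, so these counts carry the offset in signal. The difference was therefore also taken with each side against its own wild type, CZF1 minus WT warm less line minus WT line control, a comparison added after the array medians had been seen. It left 30 probe sets (0.188%) for the other 10 lines together and 39 (0.245%) for ZF. Of the 165 calls, 25 also differed from the change in the other lines and 17 from that in ZF, in the same direction. Since WT warm and WT line control differed for many genes, this difference depends on both wild types.

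Of the 25, 18 had a name, and 17 of these were higher in CZF1. AT1G70270 changed by 3.18 in CZF1 and by -1.94 to -0.02 in the other lines (difference 4.06, adjusted p = 0.00194). AT1G21540 changed by 1.93 in CZF1 and by -0.23 to 0.51 in the others (difference 1.97, adjusted p = 0.00186). THI2.2, AT4G39320, AT3G62960, AT3G15720, XTH33, the aspartyl protease gene AT1G66180 and AT2G37950 also differed (adjusted p from 0.0119 to 0.0289), as did AT2G37130 and AT2G36690 (adjusted p = 0.0219 and 0.0411) and, among the falls, AT5G66340 (difference -1.50, adjusted p = 0.0246). AT1G66180 was also called higher in ZF (0.89, adjusted p = 0.0359), and its change there was not shown to differ from that in CZF1 (difference 0.85, adjusted p = 0.314). In all 18 the CZF1 change lay outside the range of the other 10 lines. The 18 were chosen for differing from the mean change of those same lines, so this follows largely from the choice. Measured against WT line control, the CZF1 change lay outside that range on the same side in 13 of the 18. The median change against WT line control over all probe sets was 0.43 in CZF1 and -0.02 to 0.07 in the other lines. The offset in signal therefore enters this count and favours rises. EXLA1 (difference 3.75), AT4G15700, AT1G74055, AT2G18270, ULP1B and the RALF-like peptide gene RALFL27 passed the test, but against WT line control EXLA1 lay at 1.02, near the highest other line at 1.00, and the other 5 had the opposite sign.

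**Figure D5:**
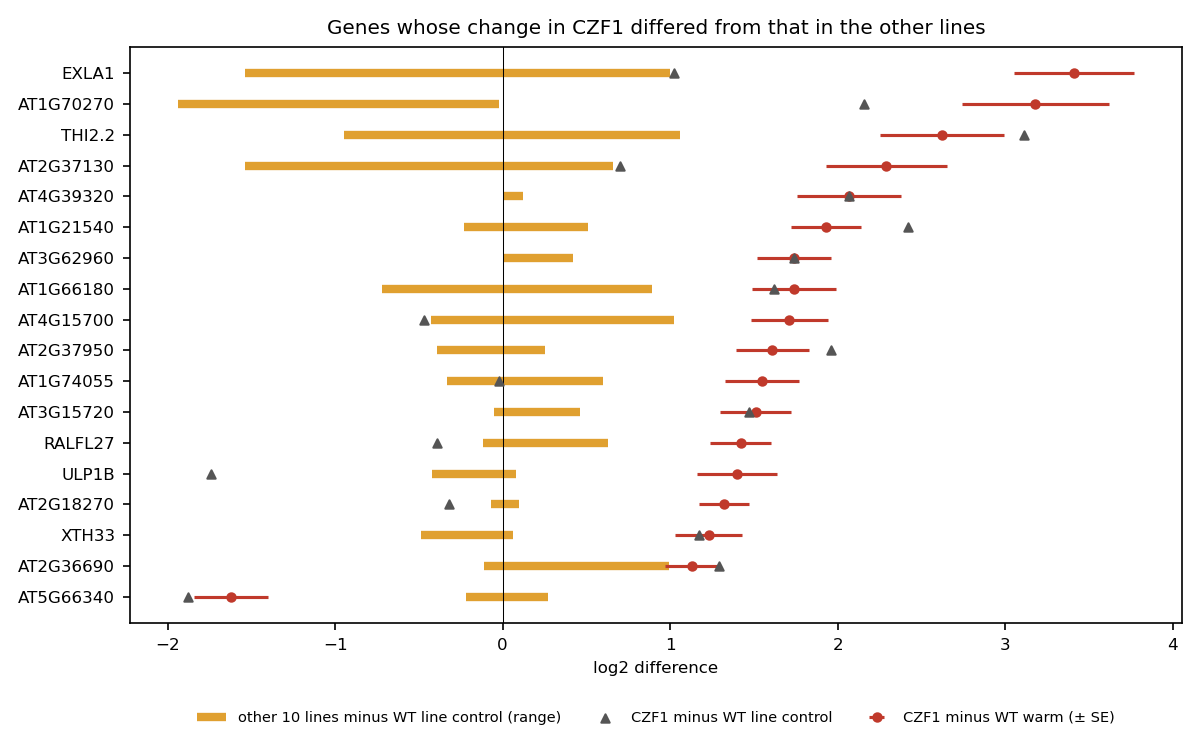
log2 differences (horizontal axis) of the 18 named genes whose change in CZF1 differed from that in the other lines. Red circles with bars are CZF1 minus WT warm ± SE, orange bars the range over the other 10 lines minus WT line control, and grey triangles CZF1 minus WT line control. All red circles lie outside the orange bars, which follows largely from how the genes were chosen. Of the 18 triangles, 13 lie outside the bars on the same side. The triangles include the higher overall signal of the CZF1 arrays over WT line control.

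The ZF line shares no arrays with CZF1 or WT warm when it is compared with WT line control. Of the 126 probe sets higher in CZF1, 31 (24.6%) were also called higher in ZF, which is 3.96% of the 783 called higher there. HSFC1, a heat shock factor line, had 30 of them called higher (23.8% of the CZF1 rises, 2.83% of 1060). Over all probe sets the share called higher was 4.92% in ZF and 6.66% in HSFC1. In MYB44 13 were called higher and in ZAT10 11, where the shares over all were 0.88% and 2.53%. In DEAR1, CRF3 and ERF5 the numbers were 4, 3 and 2, beside 0.119%, 5.79% and 0.0691% over all. Other CZF1 rises were called lower, 5 in HSFC1, 3 in CRF3, 2 in ZAT10 and 1 in MYB44. Over all 15916 probe sets, 824 were called lower in HSFC1, 447 in CRF3, 350 in ZF, 338 in ZAT10 and 129 in MYB44. Of the 39 falls, ZF had 4 called lower and 2 higher, HSFC1 2 lower and 4 higher, and ZAT10 2 lower and 1 higher. In CRF2, MYB73 and RAV1 the number was 0, and those lines had 0%, 0% and 0.00628% of all probe sets called higher in limma. AT2G43590, AT1G72140 and AT4G33980 rose in ZF by 2.35, 1.56 and 1.01 (adjusted p = 0.00231, 0.00391 and 0.00722), against 2.09, 1.51 and 1.03 in CZF1. For AT2G43590 the difference between the lines was -0.26 ± 0.55 (adjusted p = 0.91). AT1G70270, AT1G21540, AT3G62960 and AT3G15720 differed between them, by 3.96, 2.03, 1.74 and 1.55 (adjusted p = 0.00619, 0.00375, 0.0177 and 0.0273), with ZF changes of -0.79, -0.10, 0.00 and -0.05. AT1G80130 went up by 2.24 in ZF and down in CZF1, a difference of -3.70 (adjusted p = 0.00192), although CZF1 too stood above WT line control for this gene, by 1.88.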

How the data were processed

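The authors deposited log2 signals, 1 column per array, in the series' value table, with GCRMA and limma named per the submitters' processing notes without versions, and their centring between arrays not given in the sources used here. Values run from 2.13, a floor, to 14.94. Of 22810 probe sets, 64 controls were left out, and 15916 with log2 over 4 in at least 2 of the 28 arrays were tested. The platform annotation names 1 gene for 13513 probe sets, several for 503 and none for 8730. Symbols came from RefSeq, where 13436 matched.

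Group means of all 28 arrays were fitted with limma 3.58.1 in R 4.3.3 (14 residual degrees of freedom, Benjamini-Hochberg adjustment, threshold 0.05), so the spread is shared by all groups. In data simulated for CZF1 minus WT warm over 15916 probe sets, 45% of changes of 1 and 94% of changes of 2 (log2) were recovered, with 10 false calls. The simulated noise was normal and independent, with the same spread in all 14 groups for each probe set. The real groups differed in spread (root mean square SD 0.707 in CRF3, 0.257 in CZF1 and 0.246 in WT warm), so these rates may not hold for them.

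The text names the 15 largest rises and falls, CBF regulon and tandem CCCH members, up to 4 called members of each list, the unnamed extremes and, added after values were seen, genes differing from other lines. The largest rises and falls were taken from called genes without overlap between the CZF1 and WT warm arrays. The groups, members and lists were chosen with earlier results of these data known. Alternatives were other filters, scalings, priors, controls, a replicate block and arrays left out. Replicate numbers did not pair the arrays.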

Additional observations from a re-analysis of the deposited data

How the results depend on the processing

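The 165 calls against WT warm became 288 without a filter (179 higher, 109 lower), 79 with a filter at 6, 105 after quantile normalization, 478 without the CRF3 arrays (root mean square SD 0.707, against 0.257 in CZF1), which kept all 165, 2 with a 2-fold threshold, 44 to 217 with 1 array left out, 0 with the groups compared alone, 5777 against WT line control and 1889 against all 4 wild type arrays. Alternatives added after seeing the data gave 0 with only the 6 arrays of higher median (2893 at an unadjusted p under 0.05), 573 with these filtered within and a trended, robust prior, and 2289 (1096 higher, 1193 lower) against WT line control after quantile normalization. Centring on the median gave 169 calls, 68.6% higher against 76.4%. Of the calls, 89.4% were higher against WT line control. The replicate block gave 158 calls (147 shared), and the deviations of same-numbered arrays correlated at -0.047.

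CZF1 against the other 10 lines gave 7666 calls, 3646 after quantile normalization, 4272 after centring, 146 with the 2-fold threshold, 3485 to 9022 with 1 array left out and 30 with each side against its own wild type. Higher calls made up 90.3% of these, 48.1% after quantile normalization and 43% after centring. With the replicate block 7595 were called. CZF1 against ZF gave 4080, 1887, 2104, 75, 1920 to 2445 and 39 in the same order, with 87.9%, 44.3% and 38.9% higher, and 3975 with the replicate block.

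Signs turned against WT line control, as deposited and after quantile normalization, for AT1G61590 (-0.40, -0.54), AT1G80130 (1.88, 1.41), AT3G28420 (0.12, 0.13), AT4G15700 (-0.47, -0.87), ULP1B (-1.74, -1.86), RALFL27 (-0.39, -0.45), AT1G74055 (-0.02, -0.27) and AT2G18270 (-0.32, -0.61). They turned only as deposited for AT2G42290 (0.08), AT1G53120 (0.27) and AT5G47570 (0.02), and only after normalization for AT3G03440 (0.01). With all 4 wild type arrays AT1G80130 was at 0.21 and ULP1B at -0.17. The cause was not tested.

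Signals near the floor limit the changes of AT4G39320, AT3G62960, AT1G75960, AT1G61590, ULP1B, RALFL27 and AT1G33900, among others.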
